A study of Mus musculus with 6 samples.

Results

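Drug, steroid and aldehyde metabolism is carried out by 8 large enzyme families, and this account follows their genes through colonies of mouse pancreatic cells in which Glis3 or CD133 had been knocked down. The genes were taken by symbol: cytochromes P450 (Cyp), flavin-containing monooxygenases (Fmo), carboxylesterases (Ces), aldehyde dehydrogenases (Aldh), aldo-keto reductases (Akr), glutathione S-transferases (Gst), UDP-glucuronosyltransferases (Ugt) and sulfotransferases (Sult). The sterol-synthesis gene Cyp51 and the galactosyltransferase gene Ugt8a were left out. The rule used symbols alone, but the families were chosen with earlier results of these data known. Of the 11164 genes in the table, 73 belonged to these families: 16 Gst, 16 Aldh, 15 Cyp, 10 Akr, 7 Ugt, 4 Ces, 4 Sult and 1 Fmo gene. A mean of at least 1 RPKM (read number scaled to transcript length and library depth) over the 6 libraries was reached by 67 of them, and these were tested. The table lists only genes that reached 1 RPKM in some library, so a family member without a row was not analysed here.

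RNA was sequenced from primary colonies, 3 weeks after sorted cells with high CD133 and low CD71 had been plated from the pancreas of adult C57Bl/6 mice of 2 to 4 months. CD133 is the membrane protein encoded by Prom1, and Glis3 encodes a DNA-binding regulator with zinc fingers, related to the Gli proteins. In all 3 groups the cells were exposed to lentivirus with polybrene and selected in puromycin. They were then grown in methylcellulose with Matrigel, serum, conditioned medium, activin B, nicotinamide, exendin-4 and RSPO1, an enhancer of Wnt signalling. Control colonies carried 1 shRNA with no mammalian target, Glis3 knockdown colonies a pool of 5 shRNA clones against Glis3, and CD133 knockdown colonies a pool of 5 against CD133. Because each pool acted as a whole, the part of any single clone could not be seen. Each group had 2 libraries, named 1 and 3. Whether 2 libraries of a group stem from different mice or cultures is not stated in the labels, and the p-values here measure only the spread between these libraries.

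The families share a division of labour. Cyp, Fmo, Ces, Aldh and Akr enzymes oxidise, hydrolyse or reduce a compound, which exposes or alters a reactive group. Gst, Ugt and Sult enzymes then attach glutathione, glucuronic acid or sulfate, which makes most products easier to export. Many members also handle compounds of the body itself, among them retinal, steroids, lipid aldehydes and eicosanoids. The transcription factors NRF2 (encoded by Nfe2l2) and AHR are the textbook sensors of reactive compounds and of planar aromatic ligands, and several of these genes are among their known targets.

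The depth, estimated from the step between low RPKM values, was 25.8 to 29.2 megareads per library, and the correlation of log2 values across genes was 0.992 to 0.995 between libraries of a group. Glis3 stood at 26.05 and 24.22 RPKM in the controls and 13.31 and 11.96 RPKM in the Glis3 knockdown. Prom1 stood at 191.25 and 203.42 RPKM in the controls and 88.03 and 96.0 RPKM in the CD133 knockdown. Both targeted genes fell in their own knockdown (adjusted p = 0.00281 and 0.00874, limma), and both stayed measurable there. Of 13 ductal markers 12 had a row, and none of them was called in the Glis3 knockdown. In the CD133 knockdown Krt19, Krt8, Sox9 and Car2 rose, while Spp1 and the targeted Prom1 fell. Spp1 held most of the summed ductal level except in CD133 knockdown library 1, where it stood at 3127.42 RPKM. The other 11 summed to 3192 and 3545 RPKM in the controls, 3841 and 3501 RPKM in the Glis3 knockdown and 4608 and 3858 RPKM in the CD133 knockdown. With Spp1 the sums ran from 9682 to 10278 RPKM, 7669 to 9053 RPKM and 7735 to 8060 RPKM in the same order. Of 12 hepatocyte markers 4 had a row, and these did not move together: Ttr rose in the Glis3 knockdown and fell in the CD133 knockdown (-0.83, adjusted p = 0.0111), Hnf4a rose in the CD133 knockdown, and Apoa2 and Fga were too low to test. Their sums were 50.96 to 54.6 RPKM in the controls, 60.29 to 62.84 RPKM in the Glis3 knockdown and 48.8 to 49.38 RPKM in the CD133 knockdown. Of 18 acinar markers only Reg1 and Cela1 had a row, with Cela1 at 1.06 RPKM or less. Reg1 stood at 196.51 and 304.37 RPKM in the controls, 107.77 and 48.57 RPKM in the Glis3 knockdown, where it fell, and 388.49 and 382 RPKM in the CD133 knockdown. Mesenchymal markers had a row only for Fn1 (111.93 to 112.32 RPKM in the controls, 53.48 to 56.31 RPKM and 84.7 to 87.79 RPKM in the Glis3 and CD133 knockdowns), immune markers only for Cd68 and Cd14 (sums of 298.87 to 427.93 RPKM over all libraries), and Schwann cell markers only for Ncam1 (1.22 to 3.89 RPKM). The 7 endocrine markers of 13 with a row summed to 3.58 to 16.82 RPKM, with Ppy at 0 in 3 of 6 libraries, and none of 6 endothelial markers had one. The part of these shifts in the results for the enzymes was not tested. In such bulk samples, fewer cells of a type and less RNA per cell cannot be told apart.

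Several of the genes described below are near copies of each other that sit side by side, and this bears on how far their values can be separated. In 14 runs, holding 42 of the 73 genes, the next of the 73 lay within 500 kb, whichever its family. The runs of Aldh3b1 with Gstp1 and of Akr7a5 with Aldh4a1 join genes of different families. In GENCODE M21 (build GRCm38) Gsta4, Gsta1 and Gsta2 lie at chr9:78182774-78355788, and Akr1c13, Akr1c19, Akr1c12 and Akr1e1 at chr13:4191150-4609174. The first 60 coding bases of the Akr1c genes are shown because the values of these 3 neighbours are set side by side below, and capitals mark the 10 positions at which they are not all alike.
Akr1c12: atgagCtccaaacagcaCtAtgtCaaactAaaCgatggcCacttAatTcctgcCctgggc
Akr1c13: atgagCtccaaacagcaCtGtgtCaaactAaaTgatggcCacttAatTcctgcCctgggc
Akr1c19: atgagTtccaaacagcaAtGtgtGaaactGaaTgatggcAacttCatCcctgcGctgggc
In this stretch Akr1c12 and Akr1c13 differ at 2 positions, and Akr1c19 differs from Akr1c13 at 8. Over the whole coding sequence Akr1c12 and Akr1c13 were 96.2% identical, with an identical run of 228 bases, while Akr1c19 was 77.8% identical to each.

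The alpha-class transferases show the same contrast, and the first 60 coding bases are given with the 19 positions at which the 3 genes are not all alike in capitals.
Gsta1: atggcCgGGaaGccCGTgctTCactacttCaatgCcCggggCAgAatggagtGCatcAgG
Gsta2: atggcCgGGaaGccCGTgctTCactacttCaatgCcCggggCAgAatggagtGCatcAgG
Gsta4: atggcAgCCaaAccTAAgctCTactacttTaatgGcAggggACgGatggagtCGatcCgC
Gsta1 and Gsta2 are identical here and 97.9% identical over their coding sequence, with an identical run of 196 bases. Gsta4 was 68.1% identical to Gsta1, with no identical run over 13 bases. Values of Gsta1 and Gsta2, and of Akr1c12 and Akr1c13, are therefore uncertain where reads could not be assigned to 1 copy. The same holds in part for Aldh1a1 and Aldh1a7 (91.6% identical coding sequence), Akr1b10 and Akr1b7 (89.3%), and Ugt2b35 and Ugt2b36 (88.5%).

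In the control colonies the level was carried by a few genes. Over all 6 libraries 5 of the 73 had a mean of at least 100 RPKM, 26 lay between 10 and 100 RPKM, 36 between 1 and 10 RPKM and 6 under 1 RPKM. The 5 were Gsta4 (252.21 and 267.91 RPKM in the controls), which conjugates the lipid aldehyde 4-hydroxynonenal, and Gsto1 (188.22 and 202.72 RPKM), the omega-class transferase. Then came the glucuronosyltransferase Ugt2b34 (123.30 and 135.44 RPKM), the aldehyde reductase Akr1a1 (121.91 and 139.39 RPKM) and Cyp1b1 (126.48 and 127.41 RPKM), a P450 that hydroxylates oestrogens and polycyclic aromatic compounds. Among these 5, Gsta4 lay above Gsto1 and Gsto1 above the others, while the control ranges of Ugt2b34, Akr1a1 and Cyp1b1 overlapped. Together the 73 genes held 0.613% and 0.645% of the summed RPKM of the control libraries. This share was 0.823% and 0.882% in the Glis3 knockdown and 0.82% and 0.722% in the CD133 knockdown, so the libraries of each knockdown lay above both controls.

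**Figure D1:**
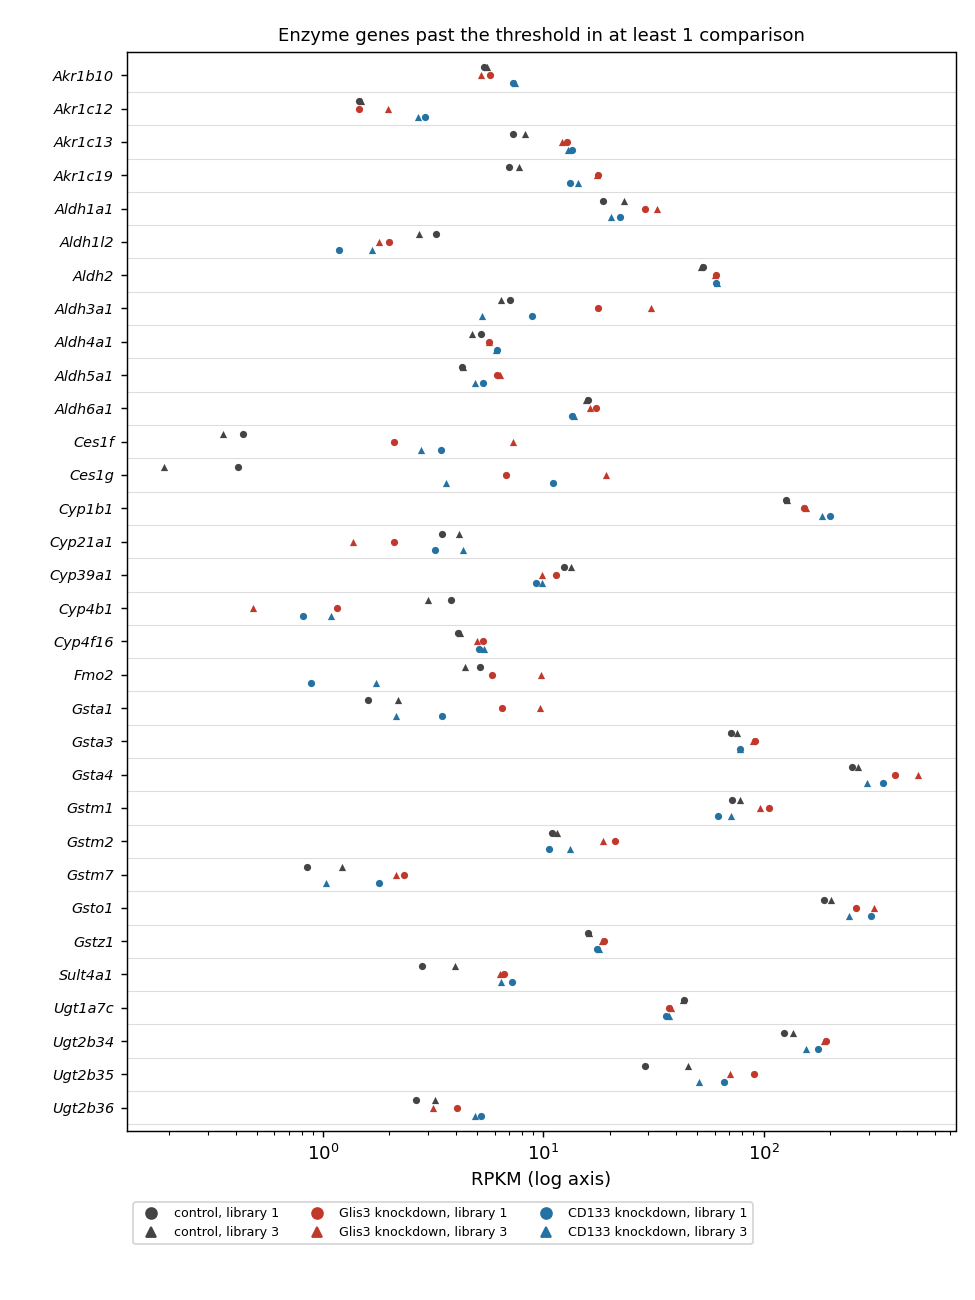
RPKM (log axis) in each of the 6 libraries for the enzyme genes past the threshold in at least 1 comparison, with circles for libraries numbered 1 and triangles for libraries numbered 3. Ces1g stood at 0.41 and 0.19 RPKM in the controls and at 3.62 to 19.21 RPKM in the knockdown libraries, whereas for Gsta1 and Aldh3a1 the CD133 knockdown libraries overlap the controls and the Glis3 knockdown libraries lie above both.

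In Glis3 knockdown colonies 8 glutathione transferases, 4 aldehyde dehydrogenases and both tested Ces1 carboxylesterases rose against control. Of the 67 tested genes 21 rose, 3 fell and 43 did not pass the test (limma on log2(RPKM + 1), adjusted p under 0.05 over all 10829 genes tested). Among all genes tested, 12.9% were called in this comparison, 8.39% as risen and 4.53% as fallen. The median log2 fold change of the 67 genes was 0.143, against 0.0444 over all genes. Both knockdown libraries lay above both controls for 34 of the 67 and below both for 9, against 38.5% and 21.1% of all genes. The largest rises were those of Ces1g, Ces1f, Aldh3a1, Gsta1 and Akr1c19, and the falls were those of Cyp4b1, Cyp21a1 and Ugt1a7c. The Gst family contributed 8 of the 21 rises from 15 tested genes and no fall. These counts rested on the control pair: without control library 1, 1 of the 24 calls remained (Akr1c19), without control library 3, 3 remained (Akr1c13, Akr1c19 and Sult4a1), and without Glis3 knockdown library 3, 13 remained. At an unadjusted p under 0.05 there were 35 of the 67 with all libraries, and 28 and 32 without control library 1 or 3. Over all genes the calls dropped as well, from 909 rises and 491 falls to 12 and 9 without control library 1 and to 50 and 38 without control library 3.

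In CD133 knockdown colonies Ces1g, 4 Akr genes and 2 Ugt2b genes rose, and no gene of the Gst family passed the test. The nearest was Gsto1 (adjusted p = 0.0577), which did pass when only the 2 groups were fitted, without either Glis3 knockdown library, and without CD133 knockdown library 3. Of the 67 genes 12 rose, 5 fell and 50 did not pass the test, where 11.8% of all genes were called, 8.16% as risen and 3.64% as fallen. The median log2 fold change was 0.127, against 0.0432 over all genes. Both knockdown libraries lay above both controls for 31 of the 67 and below both for 11, against 40.3% and 22.1% of all genes. After median centring of the libraries the split was 8 rises and 6 falls, and after quantile normalization 9 and 6. When either control library was left out, the calls were lost, among the 67 genes and over all genes alike. The median log2 fold change of the 67 was then 0.0571 (without control library 1) and 0.173 (without control library 3), against 0.0381 and 0.047 over all genes. Without CD133 knockdown library 1, 1 of the 17 calls remained, and without library 3, 8 remained among 10 called.

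Both comparisons used the same control libraries, so calls in both are not independent. With that reservation, Ces1g, Aldh2, Akr1c19, Akr1c13, Cyp1b1, Cyp4f16, Sult4a1 and Ugt2b34 rose in both, and Cyp4b1 and Ugt1a7c fell in both.

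**Figure D2:**
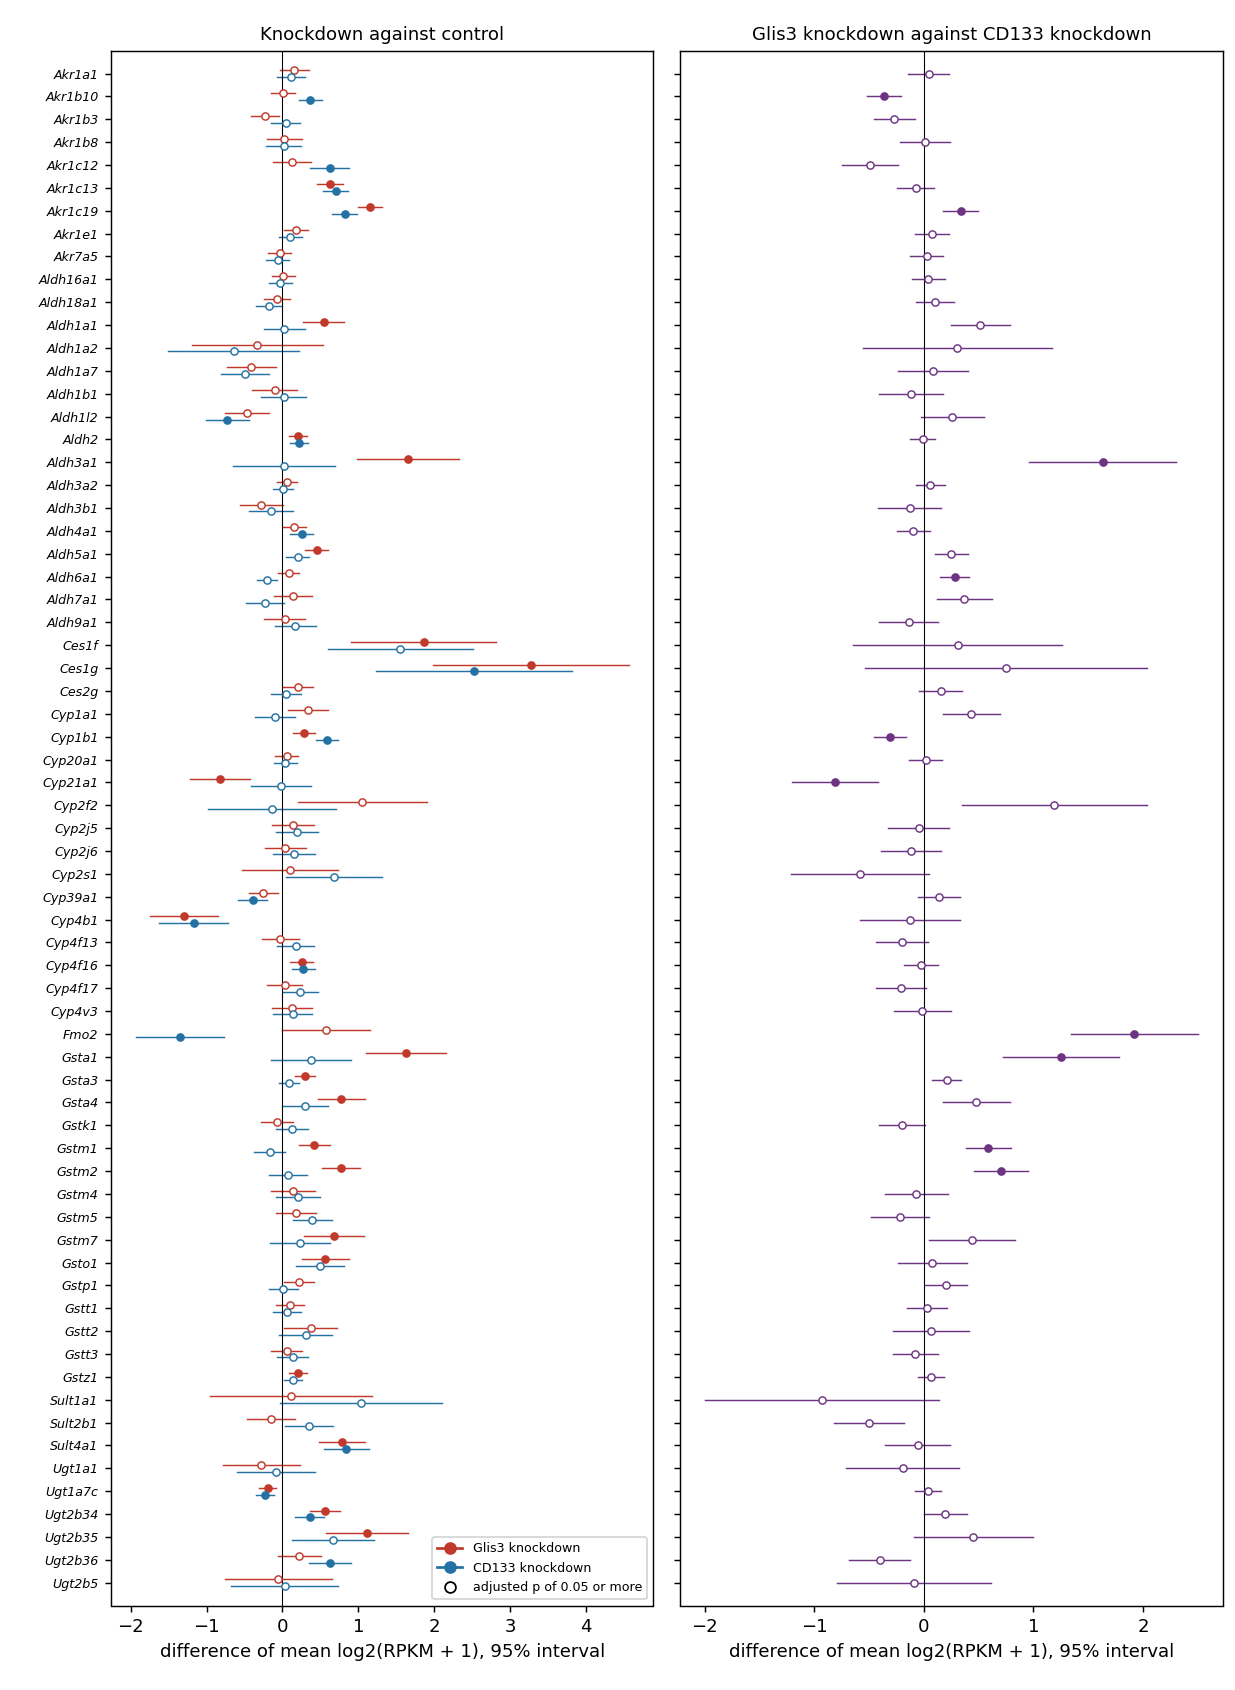
Difference of mean log2(RPKM + 1) with its 95% interval for the 67 tested enzyme genes, each knockdown against control on the left and the Glis3 against the CD133 knockdown on the right, with filled points for an adjusted p under 0.05. In the left panel most filled points lie right of 0, from 0.21 (Gstz1, Aldh2) to 3.27 (Ces1g) in the Glis3 knockdown, and the widest intervals belong to Ces1g and Sult1a1.

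Among the cytochromes P450, 2 rose and 2 fell of 14 tested in each knockdown. Of all genes, 8.39% rose and 4.53% fell in the Glis3 knockdown, and 8.16% and 3.64% in the CD133 knockdown. Cyp1b1 stood at 126.48 and 127.41 RPKM in the controls, 153.05 and 156.39 RPKM in the Glis3 knockdown and 199.37 and 183.56 RPKM in the CD133 knockdown. The 3 groups did not overlap, and the CD133 knockdown was highest. Its log2 fold change was 0.28 (SE 0.0607, adjusted p = 0.0314) in the Glis3 knockdown and 0.59 (adjusted p = 0.0111) in the CD133 knockdown, and the former did not pass under median centring. Cyp1b1 was the only P450 at such a level, since the next, Cyp2j6, an epoxygenase of arachidonic acid, lay between 13.01 and 16.47 RPKM in the 6 libraries. Cyp1a1, the classic AHR target, was near the lower limit at 1.78 and 2.09 RPKM in the controls, 2.38 and 3.05 RPKM in the Glis3 knockdown and 1.75 and 1.73 RPKM in the CD133 knockdown, and did not pass the test in either.

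Cyp4b1, a P450 that oxidises fatty acids and activates certain lung toxins, stood at 3.81 and 2.99 RPKM in the controls, 1.15 and 0.48 RPKM in the Glis3 knockdown and 0.81 and 1.09 RPKM in the CD133 knockdown. All 4 knockdown libraries lay below both controls. Its level fell by 1.30 (SE 0.19, adjusted p = 0.0119) and by 1.17 (adjusted p = 0.02) on the log2 scale. Cyp21a1, the steroid hydroxylase of the adrenal cortex, stood at 3.46 and 4.13 RPKM in the controls, 2.09 and 1.36 RPKM in the Glis3 knockdown and 3.21 and 4.33 RPKM in the CD133 knockdown. Here the Glis3 knockdown alone lay below the controls (fell by 0.82 on the log2 scale, SE 0.165, adjusted p = 0.0261), and the CD133 knockdown was at 99.3% of the control mean. Cyp39a1, which hydroxylates oxysterols on the way to bile acids, stood at 12.47 and 13.29 RPKM in the controls, 11.44 and 9.88 RPKM in the Glis3 knockdown and 9.24 and 9.89 RPKM in the CD133 knockdown. Both knockdowns lay below the controls, and the call was made in the CD133 knockdown (log2 fold change -0.39, adjusted p = 0.0293) and missed in the Glis3 knockdown (-0.25, adjusted p = 0.085).

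Cyp4f16, of a subfamily that oxidises long-chain fatty acids and leukotrienes, rose in both knockdowns by a small amount, from 4.10 and 4.20 RPKM to 5.30 and 4.97 RPKM and to 5.11 and 5.36 RPKM (log2 fold changes 0.25 and 0.28, adjusted p = 0.0484 and 0.0403). Neither call held under median centring or quantile normalization, and the call in the Glis3 knockdown was lost whichever library was left out. Its neighbours Cyp4f13 and Cyp4f17 did not pass the test. Cyp2c68 was not tested, because its mean over the 6 libraries was under 1 RPKM. It stood at 2.12 and 1.93 RPKM in the controls, 0.17 and 0.18 RPKM in the Glis3 knockdown and 0.38 and 0.72 RPKM in the CD133 knockdown, so its knockdown means were 8.64% and 27.2% of the control mean. When the filter on low values was dropped, it was the 1 further gene called in each knockdown. In all, 9 of the 14 tested P450 genes were called in neither knockdown. Among these Cyp2f2, a P450 of airway epithelium, stood at 0.90 and 0.41 RPKM in the controls, 1.26 and 4.11 RPKM in the Glis3 knockdown and 0.42 and 0.56 RPKM in the CD133 knockdown (adjusted p = 0.0994 and 0.828). Cyp2s1 stood at 3.18 and 4.24 RPKM in the controls, 4.65 and 3.44 RPKM in the Glis3 knockdown and 8.95 and 4.66 RPKM in the CD133 knockdown (adjusted p = 0.834 and 0.136). In both genes 1 knockdown library stood well above its partner. Cyp20a1 lay between 11.79 and 13.07 RPKM in all 6 libraries, and Cyp2j5 and Cyp4v3 stayed under 2 RPKM.

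The single Fmo gene separated the knockdowns. Fmo2, the flavin monooxygenase best known from lung, stood at 5.16 and 4.42 RPKM in the controls, 5.85 and 9.74 RPKM in the Glis3 knockdown and 0.88 and 1.73 RPKM in the CD133 knockdown. The CD133 knockdown libraries lay below all others, and the Glis3 knockdown libraries above both controls. Fmo2 fell by 1.35 on the log2 scale in the CD133 knockdown (SE 0.244, adjusted p = 0.0231), and its log2 fold change in the Glis3 knockdown was 0.57 (adjusted p = 0.171).

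The largest fold changes belonged to the carboxylesterases of the Ces1 cluster at chr8:93166068-93337308, where Ces1d, Ces1f and Ces1g lie side by side. These serine hydrolases cleave esters in drugs and lipids and are best known from liver. Ces1g stood at 0.41 and 0.19 RPKM in the controls, 6.77 and 19.21 RPKM in the Glis3 knockdown and 11 and 3.62 RPKM in the CD133 knockdown. Neither knockdown overlapped the controls, yet the libraries within each knockdown lay further apart than the means of the 2 knockdowns. At the estimated depth and GENCODE exon length, the control values correspond to about 26 and 13 reads. The log2 fold change was 3.27 (SE 0.54, adjusted p = 0.0154) in the Glis3 knockdown and 2.52 (SE 0.54, adjusted p = 0.0328) in the CD133 knockdown, and on this scale it understates a change from so low a level. The latter call was lost with a pseudocount of 5.

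Ces1f stood at 0.43 and 0.35 RPKM in the controls, 2.09 and 7.27 RPKM in the Glis3 knockdown and 3.41 and 2.77 RPKM in the CD133 knockdown. Again both knockdowns lay above the controls, with Glis3 knockdown library 3 the highest. The log2 fold change in the Glis3 knockdown was 1.86 (SE 0.40, adjusted p = 0.0316), and 1.15 (adjusted p = 0.0129) without that library, and the call was lost with a pseudocount of 5. In the CD133 knockdown it was 1.55 and missed the threshold (SE 0.40, adjusted p = 0.0517). It did pass there with a pseudocount of 0.1 and when only the 2 groups were fitted. Ces1d, untested, stood at 0.68 and 0.45 RPKM in the controls and between 0.96 and 1.25 RPKM in the 4 knockdown libraries. Ces2g, of a neighbouring subfamily, lay between 7.83 and 10.33 RPKM in all libraries and was called in neither knockdown.

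Aldehyde dehydrogenases turn aldehydes into acids. In the Glis3 knockdown 4 of 16 rose and none fell in the main fit, against 8.39% and 4.53% of all genes. The members differed widely in size of change, and the family median of 0.05 (log2) turned to -0.01 under median centring. Aldh3a1, which oxidises aromatic and medium-chain aldehydes and is abundant in cornea, stood at 7.06 and 6.40 RPKM in the controls, 17.73 and 30.75 RPKM in the Glis3 knockdown and 8.85 and 5.26 RPKM in the CD133 knockdown. The Glis3 knockdown lay above every other library, and the CD133 knockdown overlapped the controls. The log2 fold change was 1.66 (SE 0.281, adjusted p = 0.0165) in the Glis3 knockdown, while the CD133 knockdown mean was 105% of control (adjusted p = 0.963).

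Aldh1a1, which makes retinoic acid from retinal, stood at 18.68 and 23.16 RPKM in the controls, 28.82 and 32.80 RPKM in the Glis3 knockdown and 22.22 and 20.19 RPKM in the CD133 knockdown. As with Aldh3a1, only the Glis3 knockdown libraries lay above the controls, by 0.54 on the log2 scale (SE 0.112, adjusted p = 0.0283). Its near copy Aldh1a7 stood at 3.49 and 4.86 RPKM in the controls, 3.10 and 2.64 RPKM in the Glis3 knockdown and 2.78 and 2.52 RPKM in the CD133 knockdown. All 4 knockdown libraries of Aldh1a7 lay below the controls, with log2 fold changes of -0.41 and -0.49 that missed the threshold (adjusted p = 0.0937 and 0.0602). The retinal-oxidising Aldh1a2 varied as much within groups as between them, with 4.84 and 2.21 RPKM in the controls, 1.67 and 3.44 RPKM and 1.23 and 2.47 RPKM in the Glis3 and CD133 knockdowns.

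Of the mitochondrial members, Aldh2, the main acetaldehyde dehydrogenase, stood at 53.08 and 51.79 RPKM in the controls, 60.92 and 60.45 RPKM in the Glis3 knockdown and 60.69 and 61.41 RPKM in the CD133 knockdown. The libraries of each group were close, so a small rise passed the test in both (log2 fold changes 0.21 and 0.22, adjusted p = 0.0394 and 0.0367). Neither passed under median centring or quantile normalization, and the call in the Glis3 knockdown was lost whichever library was left out. Aldh5a1, which clears succinic semialdehyde, rose in the Glis3 knockdown from 4.27 and 4.32 RPKM to 6.18 and 6.34 RPKM (log2 fold change 0.46, SE 0.0636, adjusted p = 0.0105), with 5.31 and 4.89 RPKM in the CD133 knockdown. In the CD133 knockdown Aldh4a1, of proline breakdown, rose from 5.20 and 4.75 RPKM to 6.14 and 6.09 RPKM (0.25, adjusted p = 0.0493). That call was lost whichever library was left out, under both scalings and with a minimum mean of 5 RPKM. Aldh1l2, of mitochondrial folate metabolism, stood at 3.24 and 2.73 RPKM in the controls, 1.98 and 1.79 RPKM in the Glis3 knockdown and 1.18 and 1.66 RPKM in the CD133 knockdown. Both knockdowns of Aldh1l2 lay below the controls, and it fell by 0.72 on the log2 scale in the CD133 knockdown (SE 0.12, adjusted p = 0.0204), with -0.46 in the Glis3 knockdown (adjusted p = 0.0511). The latter did pass with a pseudocount of 5, under both scalings, without a variance trend and when only the 2 groups were fitted. Exons of Aldh1l2 share 1056 bases with a gene on the other strand and those of Aldh5a1 share 796, and the use of strand in counting is not given in the sources used here. Exons of Aldh4a1 share 1595 bases with a predicted gene on the same strand. Aldh18a1, of proline synthesis, lay between 24.23 and 30.18 RPKM, and the fatty aldehyde dehydrogenase Aldh3a2 between 17.49 and 19.01 RPKM, with no call for either. Aldh3b1, at 2.06 to 2.95 RPKM, was not called either, and nor were Aldh7a1, Aldh9a1, Aldh16a1 and Aldh1b1, at 0.87 to 19.11 RPKM.

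Aldo-keto reductases reduce aldehydes and ketones, and those of the Akr1c cluster also act on steroids. In the Glis3 knockdown Akr1c19 and Akr1c13 had the lowest adjusted p-values of the family. In the CD133 knockdown Akr1c19, Akr1c13 and Akr1c12 had them. Akr1c19 stood at 7 and 7.76 RPKM in the controls, 17.77 and 17.50 RPKM in the Glis3 knockdown and 13.22 and 14.34 RPKM in the CD133 knockdown. The 3 groups formed separate levels, with the Glis3 knockdown highest. Its log2 fold change was 1.15 (SE 0.0683, adjusted p = 0.00147) in the Glis3 knockdown, the lowest adjusted p among the 67 genes and a call kept in each of the 6 fits that left out 1 library. In the CD133 knockdown it was 0.82 (SE 0.0683, adjusted p = 0.00874). Exons of Akr1c19 share 291 bases with a pseudogene on the same strand.

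Akr1c13 stood at 7.26 and 8.22 RPKM in the controls, 12.76 and 12.19 RPKM in the Glis3 knockdown and 13.45 and 12.94 RPKM in the CD133 knockdown. Both knockdowns rose to a similar level (log2 fold changes 0.63 and 0.70, adjusted p = 0.0066 and 0.0104). Its near copy Akr1c12, whose coding start is printed above, stood at 1.45 and 1.49 RPKM in the controls, 1.46 and 1.97 RPKM in the Glis3 knockdown and 2.91 and 2.69 RPKM in the CD133 knockdown. In the Glis3 knockdown Akr1c12 overlapped the controls at 117% of their mean (adjusted p = 0.447), and it rose in the CD133 knockdown (0.62, SE 0.106, adjusted p = 0.0209). Whether the copies differed in response was not tested. Akr1b10, a reductase of retinal and lipid aldehydes, stood at 5.37 and 5.54 RPKM in the controls, 5.75 and 5.21 RPKM in the Glis3 knockdown and 7.24 and 7.44 RPKM in the CD133 knockdown. It too rose in the CD133 knockdown (0.37, SE 0.0656, adjusted p = 0.022). The most abundant reductases, Akr1a1 (121.91 to 149.49 RPKM over the 6 libraries) and Akr1b8 (65.40 to 74.96 RPKM), were called in neither, and nor were the aldose reductase Akr1b3 (8.07 to 11 RPKM), Akr1e1 (10.92 to 13.28 RPKM) and Akr7a5 (35.25 to 39.09 RPKM). Akr1b7, untested, stood at 0.44 and 0.45 RPKM in the controls, 1.04 RPKM in both Glis3 knockdown libraries and 1.58 and 0.77 RPKM in the CD133 knockdown.

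Glutathione transferases join reactive electrophiles to glutathione. In the Glis3 knockdown 8 of 15 tested members rose and none fell, against 8.39% and 4.53% of all genes. The family median was 0.30 (log2). In the CD133 knockdown limma called none of the 15, against 11.8% of all genes. There 3 of the 15 had an unadjusted p under 0.05, and the family median was 0.14. The log2 fold change was above 0 for 14 of the 15 in each knockdown, against 61.2% and 61.4% of all genes. Between the knockdowns directly, limma called 3 of the 15 (Gsta1, Gstm1 and Gstm2), against 4.06% of all genes. The other risen genes, Gsta4, Gsta3, Gstm7, Gstz1 and Gsto1, did not pass there (adjusted p = 0.094, 0.0895, 0.188, 0.487 and 0.787). The summed level of the 16 genes was 731.29 and 793.13 RPKM in the controls, 1058 and 1198 RPKM in the Glis3 knockdown and 975.84 and 857.91 RPKM in the CD133 knockdown. Every knockdown library lay above both controls in this sum, which Gsta4 and Gsto1 dominated.

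Gsta4 stood at 252.21 and 267.91 RPKM in the controls, 396.47 and 501.95 RPKM in the Glis3 knockdown and 347.07 and 294.91 RPKM in the CD133 knockdown. The groups did not overlap, and the order was control, CD133 knockdown, Glis3 knockdown. The log2 fold change was 0.78 (SE 0.128, adjusted p = 0.0153) in the Glis3 knockdown and 0.30 (adjusted p = 0.169) in the CD133 knockdown. Its neighbour Gsta1, the most strongly changed transferase, stood at 1.60 and 2.19 RPKM in the controls, 6.46 and 9.63 RPKM in the Glis3 knockdown and 3.45 and 2.14 RPKM in the CD133 knockdown. The CD133 knockdown overlapped the controls (log2 fold change 0.38, adjusted p = 0.298), and the Glis3 knockdown lay above all other libraries (1.63, SE 0.221, adjusted p = 0.00951). Gsta2, untested and nearly identical in sequence to Gsta1, stood at 0.51 and 0.47 RPKM in the controls, 0.91 and 1.64 RPKM in the Glis3 knockdown and 0.79 and 0.47 RPKM in the CD133 knockdown.

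Gsta3, named after its values were seen, is the alpha-class member on another chromosome (chr1:21240589-21265661) and an isomerase of steroids as well. It rose from 70.77 and 75.76 RPKM to 91.13 and 89.68 RPKM in the Glis3 knockdown (0.30, SE 0.055, adjusted p = 0.0205), with 78.16 and 77.90 RPKM in the CD133 knockdown. Gsto1 stood at 188.22 and 202.72 RPKM in the controls, 264.07 and 318.19 RPKM in the Glis3 knockdown and 308.61 and 244.77 RPKM in the CD133 knockdown. Both knockdowns of Gsto1 lay above the controls to a like degree, and the rise passed the test for the Glis3 pool (0.57, SE 0.132, adjusted p = 0.0392) but not for the CD133 pool (0.49, adjusted p = 0.0577), and the former call was lost under median centring.

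The mu-class genes Gstm5, Gstm7, Gstm2, Gstm1 and Gstm4 lie together at chr3:107895821-108044894. In the Glis3 knockdown 3 of these 5 rose, against 8.39% of all genes. Gstm1 stood at 72.09 and 78.09 RPKM in the controls, 105.58 and 95.98 RPKM in the Glis3 knockdown and 62.24 and 71.25 RPKM in the CD133 knockdown. The 2 knockdowns lay on opposite sides of the controls, and only the rise passed the test (0.42, SE 0.086, adjusted p = 0.0279, against -0.17, adjusted p = 0.234). Gstm2 stood at 10.91 and 11.47 RPKM in the controls, 21.04 and 18.72 RPKM in the Glis3 knockdown and 10.56 and 13.14 RPKM in the CD133 knockdown. Its Glis3 knockdown libraries lay far above the rest (0.77, SE 0.105, adjusted p = 0.00951), and the CD133 knockdown was at 106% of control (adjusted p = 0.696). Gstm7, at the lower limit, rose from 0.84 and 1.22 RPKM to 2.33 and 2.13 RPKM (0.68, SE 0.166, adjusted p = 0.045), with 1.79 and 1.03 RPKM in the CD133 knockdown. This call was lost with a pseudocount of 0.1 and under both scalings. Gstm5 was called in neither knockdown, at 24.95 and 29.22 RPKM in the controls, 32.33 and 29.08 RPKM in the Glis3 knockdown and 39.21 and 32.78 RPKM in the CD133 knockdown (adjusted p = 0.322 and 0.0624). Gstm4 lay between 3.50 and 5.27 RPKM, without a call.

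Gstz1, the maleylacetoacetate isomerase of tyrosine breakdown and also named after its values were seen, rose from 15.96 and 16.11 RPKM to 18.88 and 18.42 RPKM in the Glis3 knockdown (0.21, SE 0.0498, adjusted p = 0.0434). With 17.55 and 17.98 RPKM in the CD133 knockdown it was the smallest of the transferase changes that passed. The call was lost whichever library was left out. It was also lost under median centring or quantile normalization, without a variance trend and with only the 2 groups fitted. Exons of Gstz1 share 465 bases with genes on the other strand. Gstp1, the pi-class transferase, stood at 73.91 and 85.30 RPKM in the controls, 94.59 and 90.53 RPKM in the Glis3 knockdown and 83.12 and 77.30 RPKM in the CD133 knockdown, without a call. The theta-class genes Gstt1, Gstt2 and Gstt3 (1.48 to 7.19 RPKM) and the kappa-class gene Gstk1 (2.29 to 3.07 RPKM) were not called.

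**Figure D3:**
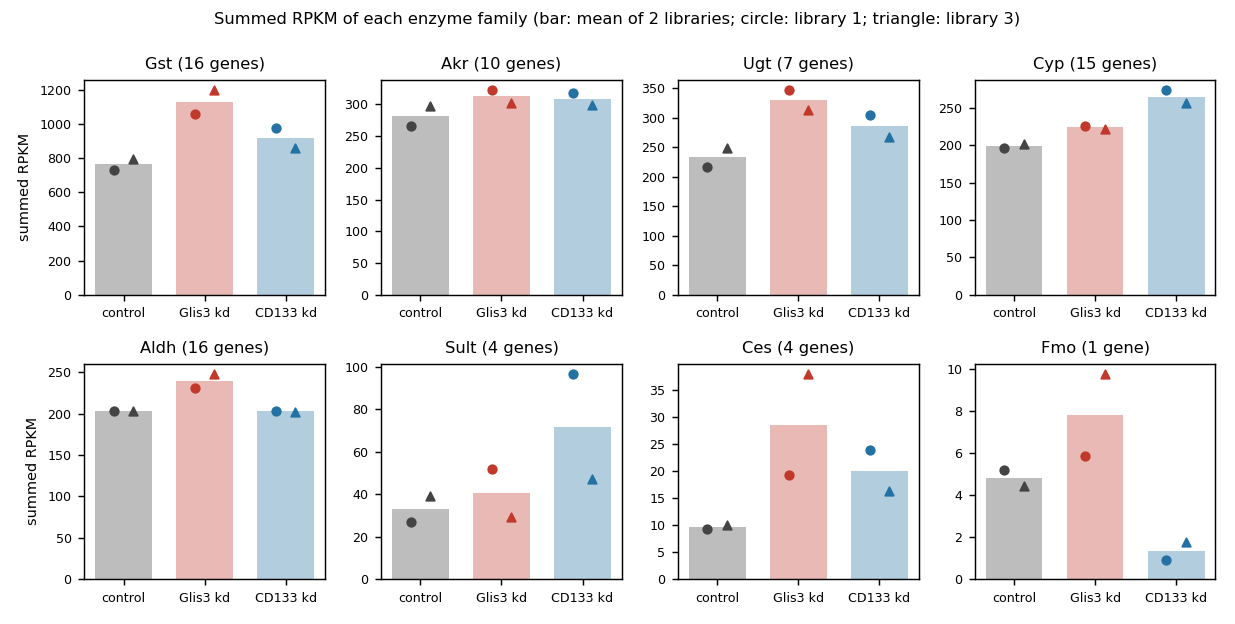
Summed RPKM of each enzyme family, with bars from 0 for the mean of 2 libraries and points for each library. The Gst sum stood at 731.29 and 793.13 RPKM in the controls and 1058 and 1198 RPKM in the Glis3 knockdown, while the Aldh sum of the CD133 knockdown (203.83 and 202.36 RPKM) lay at the control level (202.85 and 203.04 RPKM).

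Glucuronosyltransferases attach glucuronic acid to steroids, bilirubin and drugs. In the Glis3 knockdown 2 of 6 tested members rose and 1 fell, and in the CD133 knockdown the counts were the same with partly different genes. Of all genes, 8.39% rose and 4.53% fell in the former, and 8.16% and 3.64% in the latter. Ugt2b34, Ugt2b35, Ugt2b36 and Ugt2b5 lie at chr5:86889767-87140318. Ugt2b34 stood at 123.30 and 135.44 RPKM in the controls, 192.84 and 188.27 RPKM in the Glis3 knockdown and 177.40 and 155.22 RPKM in the CD133 knockdown. The 3 groups did not overlap, and both rises passed the test (0.56, SE 0.0822, adjusted p = 0.0121, and 0.36, adjusted p = 0.0392), the latter not under median centring. Ugt2b35 stood at 29.02 and 45.18 RPKM in the controls, 90.32 and 70.34 RPKM in the Glis3 knockdown and 66.27 and 50.65 RPKM in the CD133 knockdown. Its order was the same, and the Glis3 knockdown passed the test (1.12, SE 0.227, adjusted p = 0.0273), while the CD133 knockdown did not (0.66, adjusted p = 0.103).

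Ugt2b36, whose coding sequence is close to that of Ugt2b35, stood at 2.63 and 3.23 RPKM in the controls, 4.06 and 3.14 RPKM in the Glis3 knockdown and 5.20 and 4.91 RPKM in the CD133 knockdown. The CD133 knockdown was the highest here (0.63, SE 0.118, adjusted p = 0.0252), and the Glis3 knockdown overlapped the controls (0.22, adjusted p = 0.249). Ugt1a7c moved the other way, from 43.32 and 43.05 RPKM in the controls to 37.13 and 38.01 RPKM and to 36.01 and 37.13 RPKM in the Glis3 and CD133 knockdowns. Both falls were small (log2 fold changes -0.20 and -0.23, adjusted p = 0.0468 and 0.0315), and the call in the Glis3 knockdown was lost whichever library was left out. Ugt1a7c, Ugt1a6a and the bilirubin transferase Ugt1a1 have exons that overlap each other and further Ugt1a genes on the same strand (2170 bases of Ugt1a7c and 1311 bases of Ugt1a1). How reads in shared exons were assigned is not given in the sources used here. Whether the values of these genes are separate measurements is therefore not known. Ugt1a1 stood at 14.59 and 18.62 RPKM in the controls and between 10.42 and 17.26 RPKM in the knockdowns, without a call, and Ugt2b5, at 1.85 to 4.58 RPKM, was not called.

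Of the 3 tested sulfotransferases 1 was called, where 12.9% and 11.8% of all genes were called in the Glis3 and CD133 knockdowns. Sult4a1, a member known mainly from brain and without an established substrate, stood at 2.81 and 3.95 RPKM in the controls, 6.63 and 6.34 RPKM in the Glis3 knockdown and 7.20 and 6.39 RPKM in the CD133 knockdown. All 4 knockdown libraries lay above the controls (0.79, SE 0.125, adjusted p = 0.0142, and 0.84, adjusted p = 0.0173). Sult1a1, the phenol sulfotransferase and the most abundant of the family, stood at 22.64 and 32.87 RPKM in the controls, 42.43 and 20.44 RPKM in the Glis3 knockdown and 85.69 and 37.95 RPKM in the CD133 knockdown. Its libraries differed so much within groups that a log2 fold change of 1.04 in the CD133 knockdown did not pass the test (SE 0.446, adjusted p = 0.17). Sult2b1, which sulfates cholesterol, lay between 1.09 and 2.40 RPKM and was not called. Sult1c2, at 0.34 and 0.67 RPKM in the controls and 0.73 to 1.43 RPKM in the knockdowns, was among the 6 untested genes with Akr1b7, Ces1d, Cyp2c68, Gsta2 and Ugt1a6a.

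The response of the families differed between the knockdowns for 10 genes. In the direct comparison 7 were higher and 3 lower in the Glis3 than in the CD133 knockdown, where 4.06% of all genes were called, 1.61% as higher and 2.46% as lower. Both Glis3 knockdown libraries lay above both CD133 knockdown libraries for 23 of the 67 and below both for 14, against 27.9% and 26.8% of all genes. Fmo2 (1.92, SE 0.244, adjusted p = 0.0173), Aldh3a1 (1.63, SE 0.281, adjusted p = 0.0357) and Gsta1 (1.25, SE 0.221, adjusted p = 0.0378) had the largest log2 differences. Gstm2 (0.71, SE 0.105) and Gstm1 (0.59, SE 0.086) followed, both with an adjusted p of 0.0229. Akr1c19 (0.34, adjusted p = 0.0495) and Aldh6a1 (0.28, adjusted p = 0.0469), of valine breakdown, were higher by less. Aldh6a1 stood at 15.95 and 15.69 RPKM in the controls, 17.41 and 16.21 RPKM in the Glis3 knockdown and 13.52 and 13.75 RPKM in the CD133 knockdown, and was called against control in neither. Lower in the Glis3 knockdown were Cyp21a1 (-0.81, SE 0.165, adjusted p = 0.0495), Akr1b10 (-0.37, adjusted p = 0.0389) and Cyp1b1 (-0.30, adjusted p = 0.0473). When only these 2 groups were fitted, limma called none of the 67, although 25 had an unadjusted p under 0.05. Over all 10829 genes that fit called 26 as higher and 32 as lower. The calls among the 67 were also lost without either control library or CD133 knockdown library 1, and calls over all genes dropped there as well. Those of Akr1c19, Aldh6a1 and Cyp1b1 were lost whichever library was left out. Without Glis3 knockdown library 3, or without CD133 knockdown library 3, 3 were called.

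The genes that sense reactive compounds or supply the enzymes were read from lists of their own, whose counts stand beside 8.39% rises and 4.53% falls among all genes in the Glis3 knockdown and 8.16% and 3.64% in the CD133 knockdown. Of 23 tested sensing factors and partners 2 rose and 4 fell in the Glis3 knockdown, and 2 rose and 2 fell in the CD133 knockdown. Nfe2l2, which encodes NRF2, stood at 178.27 and 172.73 RPKM in the controls, 223.91 and 235.99 RPKM in the Glis3 knockdown and 162.71 and 168.53 RPKM in the CD133 knockdown. The Glis3 knockdown lay above the controls (0.39, SE 0.0587, adjusted p = 0.0128) and above the CD133 knockdown (0.47, adjusted p = 0.0171). Ahr stood at 114.08 and 102.26 RPKM in the controls, 60.26 and 57.96 RPKM in the Glis3 knockdown and 68.45 and 83.03 RPKM in the CD133 knockdown. It fell in both (by 0.86, adjusted p = 0.00736, and by 0.51, adjusted p = 0.0269, on the log2 scale). Bach1, a repressor at NRF2 target sites, fell in the Glis3 knockdown (by 0.30, adjusted p = 0.0204), and Hnf4a, a hepatic and pancreatic nuclear receptor, rose in the CD133 knockdown (0.31, adjusted p = 0.0209). The other calls in the Glis3 knockdown were Pparg, which rose (0.41, adjusted p = 0.0192), and Maff and Rxra, which fell (-0.73 and -0.24, adjusted p = 0.0258 and 0.0307). In the CD133 knockdown Maff fell as well (-0.73, adjusted p = 0.0279) and Foxa1 rose (0.57, adjusted p = 0.0315).

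Among 23 NRF2 targets outside the families 9 rose and 1 fell in the Glis3 knockdown, with a median log2 fold change of 0.18 (0.0444 over all genes), and 1 rose and 3 fell in the CD133 knockdown, with a median of 0.05 (0.0432 over all genes). Rises made up 8.39% of all genes in the former comparison and 8.16% in the latter. Nqo1, a quinone reductase and a target of both sensors, stood at 7.36 and 8.47 RPKM in the controls, 14.86 and 16.17 RPKM in the Glis3 knockdown and 11.97 and 8.72 RPKM in the CD133 knockdown. Every knockdown library of Nqo1 lay above both controls, and the rise passed in the Glis3 knockdown (0.89, SE 0.137, adjusted p = 0.0131; 0.34, adjusted p = 0.154 in the CD133 knockdown). Tkt and Pgd, of the pentose phosphate pathway, rose in the Glis3 knockdown by 0.53 and 0.38 (adjusted p = 0.013 and 0.0131), and Pgd was the 1 rise in the CD133 knockdown (0.25, adjusted p = 0.0399). Hmox1, haem oxygenase, fell in both (by 0.27 and 0.52 on the log2 scale, adjusted p = 0.0487 and 0.0148). Of 20 genes that supply electrons and cofactors 5 rose in the Glis3 knockdown and 2 in the CD133 knockdown, with no fall. G6pdx and Gclc, among those that rose in the Glis3 knockdown, are counted with the NRF2 targets as well. Por, the reductase that feeds electrons to microsomal P450 enzymes, also rose in the Glis3 knockdown. It went from 40.27 and 39.22 RPKM to 54.25 and 54.13 RPKM (0.44, SE 0.0605, adjusted p = 0.0102), with 41.58 and 45.78 RPKM in the CD133 knockdown.

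The remaining lists are short, and their counts stand beside 12.9% and 11.8% of all genes called in the Glis3 and CD133 knockdowns. Of 5 tested AHR targets outside the families 2 rose and 1 fell in the Glis3 knockdown, and 2 fell in the CD133 knockdown. That list includes Ahr, Nfe2l2 and Nqo1, which are also on the lists above. Of 23 other enzymes of these pathways 3 rose and 1 fell in the Glis3 knockdown, and 1 rose and 1 fell in the CD133 knockdown. Nqo1 is counted again among those that rose in the Glis3 knockdown. Ephx1, the microsomal epoxide hydrolase, rose in both (0.55 and 0.42, adjusted p = 0.0113 and 0.0258). Of 12 tested drug transporters 3 rose and 2 fell in the Glis3 knockdown and 1 rose and 1 fell in the CD133 knockdown. Slco2a1, a prostaglandin transporter, fell in both (by 1.08 and 0.43 on the log2 scale, adjusted p = 0.00147 and 0.0174). Of 16 tested genes of retinoid metabolism and response 1 rose and 3 fell in the Glis3 knockdown and 4 rose and 1 fell in the CD133 knockdown. Rxra, which fell in the Glis3 knockdown, is on the list of sensing factors as well. Rbp4, the plasma retinol carrier, fell in both (by 1.49 and 1.36 on the log2 scale, adjusted p = 0.0057 and 0.0111), and the retinal reductase Rdh11 rose in both (0.65 and 0.28, adjusted p = 0.0061 and 0.0434). All these lists were drawn up with earlier results of these data known.

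**Figure D4:**
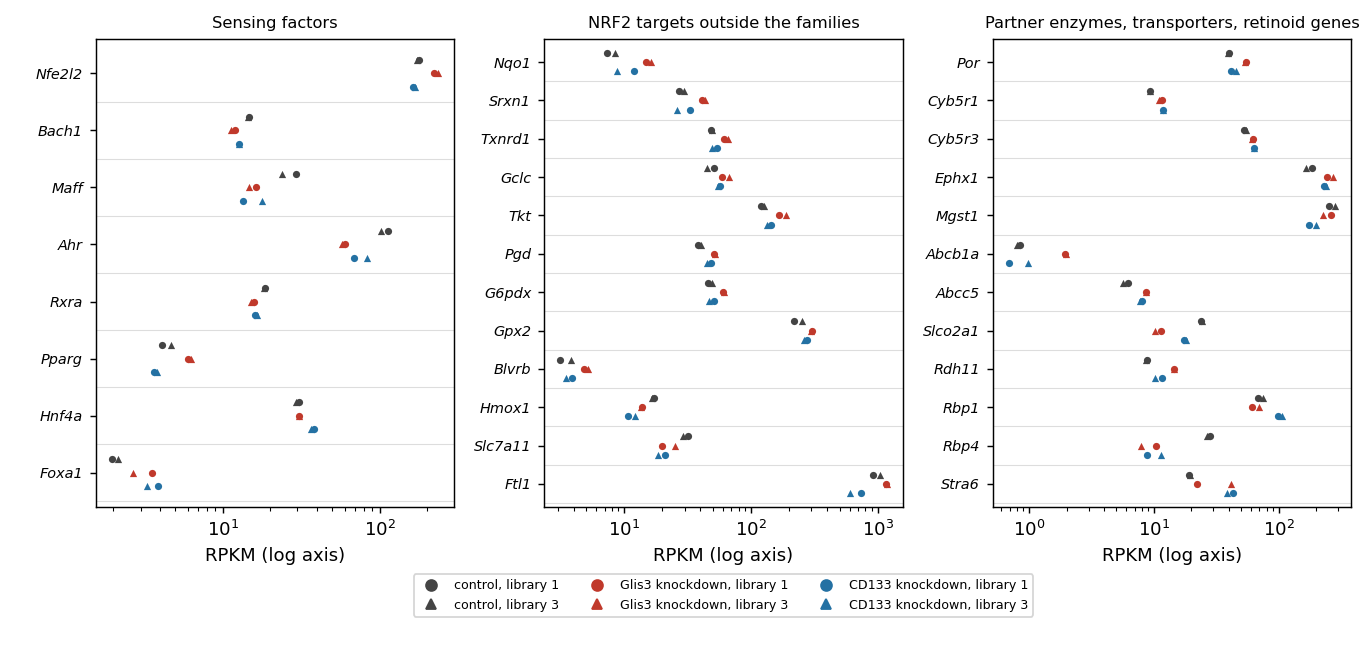
RPKM (log axis) in each library for sensing factors, NRF2 targets and partner genes outside the enzyme families, with circles for libraries numbered 1 and triangles for libraries numbered 3. Nfe2l2, Nqo1 and Por lie highest in the Glis3 knockdown, and Ahr lies lower in all 4 knockdown libraries (57.96 to 83.03 RPKM) than in the controls (102.26 and 114.08 RPKM).

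Promoters were read for motifs of these sensors because a group of transferases rose together in the Glis3 knockdown. RefSeq (GRCm38.p6) promoters, 250 bases before to 50 after the start, were found for 60 of the 73 genes and for 8788 genes of the table. The antioxidant response element core TGACNNNGC, searched on both strands, was in 3 of the 16 promoters of genes that rose in the Glis3 knockdown (Akr1c19, Gstm7 and Gsta3; 18.8%). It was in 11.7% of the 60 and in 17.0% of all 8788. The core was also in the promoter of the transferase Gstm5, which was called in neither knockdown. Of 32 promoters of members past the threshold in neither knockdown, 4 held it (12.5%). For the risen transferases Gsta3 and Gstm7, the following stretches hold this core in capitals. They are read 5′ to 3′ on the gene's strand.
Gsta3, chr1:21240444-21240492, plus strand: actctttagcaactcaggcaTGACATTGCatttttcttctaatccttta
Gstm7, chr3:107931715-107931763, minus strand: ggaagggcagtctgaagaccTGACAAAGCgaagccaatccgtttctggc
The xenobiotic response element core GCGTG, which pairs with AHR, was in 25.0% of the 16, 33.3% of the 60 and 57.9% of all promoters. It was in the Cyp1b1 promoter as its reverse complement, in capitals in the following stretch of the minus strand.
Cyp1b1, chr17:79715113-79715157, minus strand: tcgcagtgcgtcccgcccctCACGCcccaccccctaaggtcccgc
With its flanking base (TNGCGTG, which contains the former) it was in none of the 16, 8.3% of the 60 and 9.9% of all. The core of the reported GLIS3 site, TGGGGGGT, was in none of the 16, in 5.0% of the 60 and in 1.7% of all promoters. These are matches of letters in a short window, and the shares in the risen genes and in all promoters are given as a description.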

How the data were processed

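The authors deposited 1 table of RPKM values with 2 decimals for 11164 genes in 6 libraries from a stranded poly(A) kit, per the labels' protocols. Per the submitters' processing notes, mm10, HTSeq, TopHat2 and bcl2fastq 2.18.0.12 were used. For the annotation, the use of strand in counting and any scaling between samples, the answer is not given in the sources used here. RPKM is not a count, so log2(RPKM + 1) was fitted with limma 3.58.1 (R 4.3.3): 3 group means, all 6 libraries, variance trend, 3 residual and 3.69 prior degrees of freedom. Genes averaging 1 RPKM or more (10829) entered the fit. Tests were two-sided, with Benjamini-Hochberg adjustment over all genes tested. Every fold change is a difference of mean log2(RPKM + 1) and understates the change of low genes. SE and intervals are the moderated ones. The script was tested on simulated data.

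Depth was estimated from GENCODE M21 lengths as the depth at which low values were most often whole reads: 59.6% to 62.6% of 91 to 103 values per library, within 0.15 read, against 30% by chance. RPKM sums were 267688 to 279122 per library. Coordinates, overlaps and coding sequences are from GENCODE M21 (all 73 genes matched). Identity was computed on coding sequences with Biopython 1.88, in place of the planned protein comparison.

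The named genes were Glis3 and Prom1, members past the threshold (at most the 15 largest rises and 15 largest falls per comparison), the 2 most abundant members of each family, all Aldh1a and Aldh3 members (Cyp26 genes, also in the rule, were not analysed here), the member of lowest p where a family had none past the threshold, and up to 4 genes per other list. Further members are named to account for all 73, after their values were seen. So are Pparg, Maff, Rxra and Foxa1, to account for the calls among the sensing factors. The members and lists were chosen with earlier results of these data known. Alternatives were 2 other pseudocounts (0.1 and 5), other filters, centring, quantile normalization, no variance trend, fits of 2 groups, leaving out each library and a replicate block.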

Additional observations from a re-analysis of the deposited data

Results flagged for a closer look

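For 10 enzyme genes the effects of the knockdowns differed from each other in the direct limma test of the Glis3 against the CD133 knockdown. That test called 4.06% of all genes, and none of the 10 calls was kept when only these 2 groups were fitted. The log2 difference was 1.92 for Fmo2, 1.63 for Aldh3a1, 1.25 for Gsta1, 0.71 for Gstm2, 0.59 for Gstm1, 0.34 for Akr1c19 and 0.28 for Aldh6a1, all higher in the Glis3 knockdown. It was -0.81 for Cyp21a1, -0.37 for Akr1b10 and -0.30 for Cyp1b1, all lower there. Against control, Fmo2 and Gstm1 had values on opposite sides in the knockdowns, and Akr1c19 and Cyp1b1 rose in both. The direct calls of Akr1c19, Cyp1b1 and Aldh6a1 were lost whichever library was left out, and those of Akr1c19 and Cyp1b1 also under median centring. Gsta1, Gstm2, Aldh3a1 and Cyp21a1 were called against control in the Glis3 knockdown and overlapped the controls in the CD133 knockdown. Akr1b10 was called in the CD133 knockdown and overlapped the controls in the Glis3 knockdown, and Aldh6a1 was called against control in neither. Cell type markers differed between the knockdowns too: Ttr was higher in the Glis3 knockdown, and Reg1, Fn1, Ncam1, Hnf4a, Sox9 and Car2 were lower, with log2 differences of 1.30, -2.40, -0.64, -0.86, -0.27, -0.30 and -0.64 in that order. Their part in the differences of the enzyme genes was not tested.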

How the results depend on the processing

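In place of the 24 calls in the Glis3 knockdown, pseudocounts, filters, scalings, the fit without a variance trend and the fit of 2 groups gave 17 to 25. In place of the 17 in the CD133 knockdown they gave 14 to 18, except 10 with a minimum mean of 5 RPKM, where 42 of the enzyme genes were tested. The 10 calls between the knockdowns became 6 without a variance trend and 0 with only the 2 groups fitted. Leaving out 1 library, with the lone library assumed to vary like the other groups, gave 1 to 21 calls in the Glis3 knockdown, 0 to 18 in the CD133 knockdown and 0 to 14 between them. No called member changed direction in any alternative run. The log2 fold change of Glis3 itself in the CD133 knockdown, which was not called, ranged from -0.087 to 0.014 when 1 library was left out, the latter without control library 1.

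The replicate numbers were not taken as pairs, since deviations of same-numbered libraries correlated at -0.372 (control and Glis3 knockdown), -0.428 (control and CD133 knockdown) and 0.0322 (the knockdowns). With the number as a replicate block, limma called 11, 6 and 1 members. With the control numbers crossed, chosen after seeing the data, it called 26 and 23. Causes of these changes were not tested. With 2 libraries per group the spread rests on few degrees of freedom, and genes near 1 RPKM rest on few reads. Calls over all genes in the CD133 knockdown also moved with scaling, with 884 rises and 394 falls against 559 and 612 after median centring. For the Glis3 knockdown these were 909 and 491 against 576 and 712.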
